A study of Mus musculus with 6 samples.

Results

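The heat shock chaperone genes followed here across the cells of the aged mouse lung were Hspa1a, Hspa1b, Hsph1, Dnajb1, Dnaja1, Hspa8, Hsp90aa1, Hsp90ab1, Hspd1 and Hspe1. They were taken by gene symbol, and all 10 were found among the 31054 features of the deposited matrices. The list was chosen by UMI levels that had already been compared between the p16-DTR and control groups. Differences between these groups are therefore described below and not tested.

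Lungs came from C57BL/6 male mice aged 21 months. The group labelled p16-DTR carried p16-CreERT2 and R26-LSL-DTR, so that tamoxifen turns on a diphtheria toxin receptor in cells that use the p16 promoter. The control group carried p16-CreERT2 without the receptor. The same schedule was used for all mice, so controls share the Cre allele and both agents: 5 days of tamoxifen, a pause of 2 weeks, 5 days of toxin, and harvest 2 weeks later. There were 3 mice per group and 1 droplet library per mouse, and each library mixed 20000 CD45-negative with 9000 CD45-positive cells of 1 lung digested at 37 °C for 1 hour.

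Heat shock chaperones help proteins to fold and keep damaged ones from clumping. HSP70 proteins bind exposed stretches of a client with the help of J-domain partners, HSP110 proteins exchange their nucleotide, and HSP90 proteins take over clients at a later stage. HSP60 and HSP10 form a folding chamber in mitochondria. Heat shock factor 1, encoded by Hsf1, raises many of these genes through heat shock elements in their promoters, which repeat the unit GAA in alternating orientation.

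After filtering, 91156 cells remained, with 13025 to 16884 per library and a median of 17091 to 18495.5 UMIs per cell. Library pairs shared 59 to 94 barcodes, at most 0.586% of the smaller library. Marker genes, none of them a chaperone studied here, assigned 71391 cells (78.3%) to a cell type, and 17 types had at least 50 cells in every library. Cells of 2 lineages (8902) were left out of these types. Cdkn2a, which encodes p16, stood at 7.66 ± 0.791 UMIs per 1000000 (CPM) in libraries labelled p16-DTR and at 2.20 ± 0.913 CPM in controls (SD, n = 3), so it was higher and not lower in the former. In sums over all cells, fewer cells of a type and less RNA per cell cannot be told apart.

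One library stood apart for these genes. In p16-DTR replicate 2, the chaperone level was the highest of the 6 libraries in 145 of 170 pairs of a gene and a cell type (85.3%), against 16.4% of all such pairs over the genes measured. Its retained cells had a median of 17439 UMIs and 1.44% mitochondrial UMIs, both within the range of the other libraries. The summed level of the 5 erythroid genes was 27.0 CPM there and 0.621 to 18.4 elsewhere, and the part of red cells in the result was not tested. The 6 platelet genes summed to 28.4 there and to between 22.4 and 112 elsewhere. The main differences are therefore given below with and without this library.

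Hspa1a and Hspa1b encode the stress-inducible HSP70 proteins. Their starts lie 12918 bases apart on the minus strand of chromosome 17 (GRCm38), Hspa1a at 34969190 to 34972156 and Hspa1b at 34956436 to 34959238. Their promoters are shown because the pair is nearly identical there: the 250 bases before the start differed at 3 positions. The sequences are from RefSeq, GRCm38.p6, on the minus strand, at chr17:34972157-34972406 for Hspa1a and chr17:34959239-34959488 for Hspa1b. Capitals mark a match to GAANNTTC or TTCNNGAA, each of which reads the same on both strands.
Hspa1a: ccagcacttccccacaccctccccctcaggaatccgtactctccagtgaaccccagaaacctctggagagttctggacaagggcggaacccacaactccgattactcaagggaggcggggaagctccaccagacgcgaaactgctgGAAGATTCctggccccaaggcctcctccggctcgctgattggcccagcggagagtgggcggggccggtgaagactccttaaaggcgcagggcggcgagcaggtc
Hspa1b: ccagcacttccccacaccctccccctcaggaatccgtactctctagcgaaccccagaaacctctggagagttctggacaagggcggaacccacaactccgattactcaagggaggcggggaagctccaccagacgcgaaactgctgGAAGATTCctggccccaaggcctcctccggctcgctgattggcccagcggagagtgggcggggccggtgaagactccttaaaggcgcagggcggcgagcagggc

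Such a match occurred in 12.8% of the 32851 promoter entries searched over 250 bases. RefSeq promoter entries matched 7 of the 10 genes, and Hspa8, Hsp90aa1 and Hsp90ab1 had none. Short stretches around the matches of Hsph1 (chr5:149636351-149636380, minus strand), Dnaja1 (chr4:40722333-40722362, plus strand) and Hspe1 (chr1:55088053-55088082, plus strand) are set side by side to show their spacing.
Hsph1: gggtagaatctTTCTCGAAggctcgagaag
Dnaja1: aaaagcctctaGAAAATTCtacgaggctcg
Hspe1: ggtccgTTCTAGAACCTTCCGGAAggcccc

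The Hspe1 stretch held 3 overlapping matches in a row, which include the 3-unit form (a match extended by NN and 1 further unit) found in 0.466% of entries. The Dnaja1 stretch lies within the annotated gene, where 218 of the 250 bases searched overlap an annotated exon. Of the 3 promoter entries of Dnaja1, 1 held a match. For Hsph1 the overlap with an exon was 40 bases, and its stretch lies mostly within the annotated gene. For Hspe1 the overlap was 159 bases, and its stretch lies within the annotated Hspd1 gene. Hspe1 shares this region with Hspd1, whose 5′ end lies 95 bases away on the other strand. No match was found in the 2 entries of Dnajb1. A match is a description of these letters and not a binding site.

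Positions of the other genes are also in GRCm38. Hsph1 is at chromosome 5, 149614287 to 149636376 on the minus strand, and Dnaja1 at chromosome 4, 40722150 to 40737149 on the plus strand. Dnajb1 is at chromosome 8, 83608193 to 83612653, and Hspa8 at chromosome 9, 40800984 to 40810087, both on the plus strand. Hsp90aa1 is at chromosome 12, 110690605 to 110702728, and Hsp90ab1 at chromosome 17, 45567775 to 45573271, both on the minus strand. Hspd1 (55077835 to 55088243, minus) and Hspe1 (55088132 to 55091307, plus) meet head to head on chromosome 1, where their annotated ends overlap.

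In sums over all retained cells, the inducible HSP70 genes were high in a single library. There Hspa1a stood at 24.6, 43.4 and 23.9 CPM in p16-DTR replicates 1, 2 and 3, and at 24.3, 23.8 and 28.8 in the controls. Hspa1b gave 14.5, 31.5 and 11.4 against 14.5, 12.9 and 13.4. In both genes, replicate 2 was above all other libraries and the other p16-DTR libraries overlapped the controls. The log2 ratio of group means was 0.26 for Hspa1a and 0.49 for Hspa1b, and it was -0.08 and -0.07 without replicate 2. The transcripts share 58.8% (Hspa1a) and 62.3% (Hspa1b) of their 50-base words, but none in the last 500 bases, where 3′ libraries take most of their reads.

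Hsph1, which encodes the HSP110 exchange factor, had the widest log2 ratio over all retained cells with every library included. It stood at 54.1, 89.2 and 44.9 CPM in the p16-DTR libraries and at 36.5, 43.4 and 46.4 in controls, a log2 ratio of 0.58. Replicate 3 lay within the control range. The ratio was 0.23 without replicate 2, where Dnajb1 lay further from 0 at -0.33. With equal weight per cell type it was 0.70, below the 0.75 of Hspa1b.

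Of the other cytosolic HSP70 and HSP90 genes, Hspa8 and Hsp90ab1 were separated between the groups over all retained cells and Hsp90aa1 was not. Hspa8, the constitutive cytosolic HSP70, stood at 812, 1112 and 792 against 642, 680 and 728, with no overlap between groups and a log2 ratio of 0.41 (0.23 without replicate 2). Hsp90ab1, the constitutive HSP90, gave 883, 1186 and 897 against 738, 804 and 855, again without overlap, at 0.31 (0.16 without replicate 2). Within lineages, Hspa8 overlapped in endothelial cells (0.06 without replicate 2) and did not in epithelial, mesenchymal or immune cells. Hsp90ab1 overlapped in epithelial and immune cells (0.14 and 0.02 without replicate 2) and did not in endothelial or mesenchymal cells. Over all retained cells, Hsp90aa1, the inducible HSP90, gave 421, 509 and 361 against 418, 436 and 443. Its groups overlapped, and its ratio of -0.01 became -0.14 without replicate 2. It was 0.28 from the mean CPM of the 17 types with equal weight. Ciliated cells, by far the highest type for Hsp90aa1 at 4609 CPM, weigh most in this mean. The median of the ratios within the 17 types was 0.11, and 0.0038 without replicate 2.

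The J-domain genes went separate ways. Dnaja1 stood at 294, 409 and 264 in the p16-DTR libraries and at 279, 272 and 301 in controls, with replicate 2 alone above the control range. Its log2 ratio was 0.18, and -0.03 without replicate 2. Dnajb1 stood at 53.1, 63.3 and 44.9 against 63.8, 55.7 and 64.9. In Dnajb1 the p16-DTR mean was the lower one, with a log2 ratio of -0.19 and overlapping groups. Without replicate 2 the ratio was -0.33, and both remaining p16-DTR libraries lay below all controls, as did 29.7% of all genes.

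Of the mitochondrial pair Hspd1 (HSP60) and Hspe1 (HSP10), the second was separated between the groups. Hspd1 gave 92.6, 114 and 88.1 against 86.6, 87.2 and 93.5, and Hspe1 gave 98.9, 116 and 103 against 85.7, 81.2 and 92.8. Hspd1 overlapped, at a log2 ratio of 0.14 (0.02 without replicate 2), and Hspe1 did not, at 0.29 (0.22 without replicate 2). Within lineages, Hspe1 overlapped in immune cells and did not in endothelial, epithelial or mesenchymal cells. Immune cells were 3639, 3895 and 4536 of the 12636, 12880 and 13045 lineage-gated cells in p16-DTR. In controls they were 3143, 2582 and 3313 of 14337, 10972 and 13202. The part of this in the sums over all cells was not tested. Over all 10 genes, 3 were higher in p16-DTR without overlap, where 8.58% of all 21630 genes were, and 0 were lower, where 22.5% were. Replicate 2 was the highest library for 9 of them, against 9.79% of all genes. The median log2 ratio of the 10 genes was 0.27 and -0.00229 without replicate 2, against a median of -0.06 over all genes with it and -0.07 without it.

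**Figure D1:**
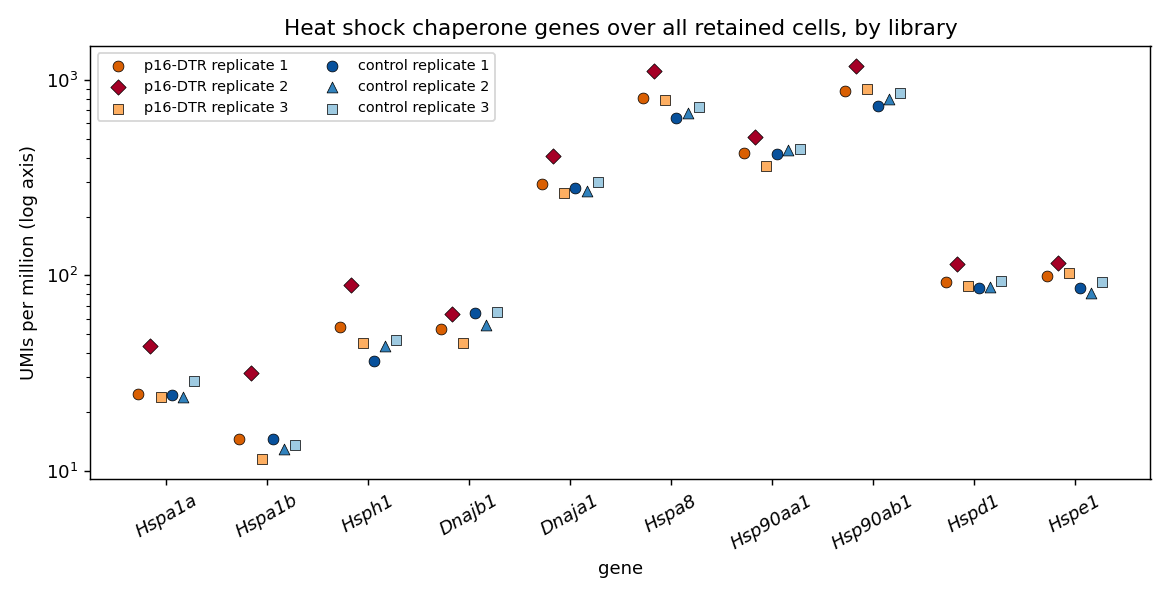
CPM on a log axis for each of the 10 chaperone genes over all retained cells, with 1 point per library. p16-DTR replicate 2 (dark red diamonds) is the highest library for 9 genes, for example at 1112 for Hspa8, and lies within the control range for Dnajb1.

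The pattern of replicate 2 ran through the cell types. It was the highest library in 17 of 17 types for Hsph1, Dnaja1, Hspa8 and Hsp90ab1, and in 16 for Hsp90aa1 and Hspd1. The count was 14 for Hspa1b and Hspe1 and 11 for Hspa1a. Dnajb1 was the exception, with 6 types. Against the mean of the other 5 libraries, the median log2 ratio of replicate 2 over the 17 types was 1.23 for Hsph1, 1.25 for Hspa1b, 0.56 for Hspa8 and 0.04 for Dnajb1.

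**Figure D2:**
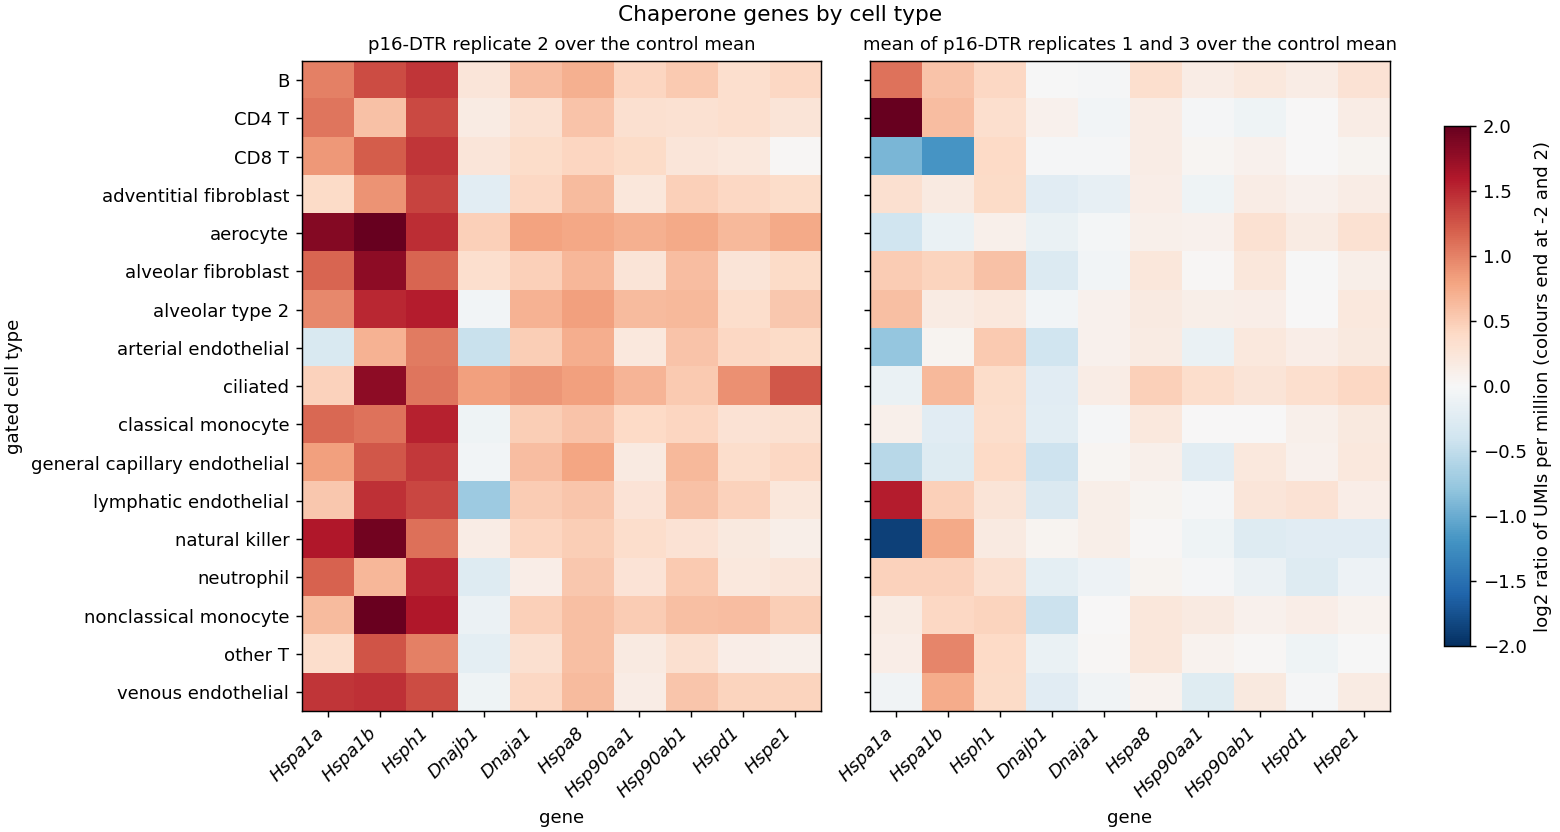
Log2 ratio to the control mean for 10 chaperone genes (columns) in 17 gated cell types (rows), for p16-DTR replicate 2 (left) and for the mean of p16-DTR replicates 1 and 3 (right). The left panel is mostly red; in the right panel Hsph1 keeps a median of 0.38 over the types, Hspa8 one of 0.14, and Hspa1a takes both signs.

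The higher level of replicate 2 ran over the whole range of single cells. Summed over the 10 genes, general capillary endothelial cells, which line most alveolar capillaries, had a median of 31.2 UMIs per 10000 in replicate 2. The medians were 22.3 and 20.6 in p16-DTR replicates 1 and 3 and 19.99, 18.9 and 22.01 in controls. The 10th percentile was 19.2 in replicate 2 and 11.5 to 13.6 in the other libraries. At the 10th, 25th, 50th, 75th and 90th percentiles alike, replicate 2 was the highest library in 17 of 17 types.

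**Figure D3:**
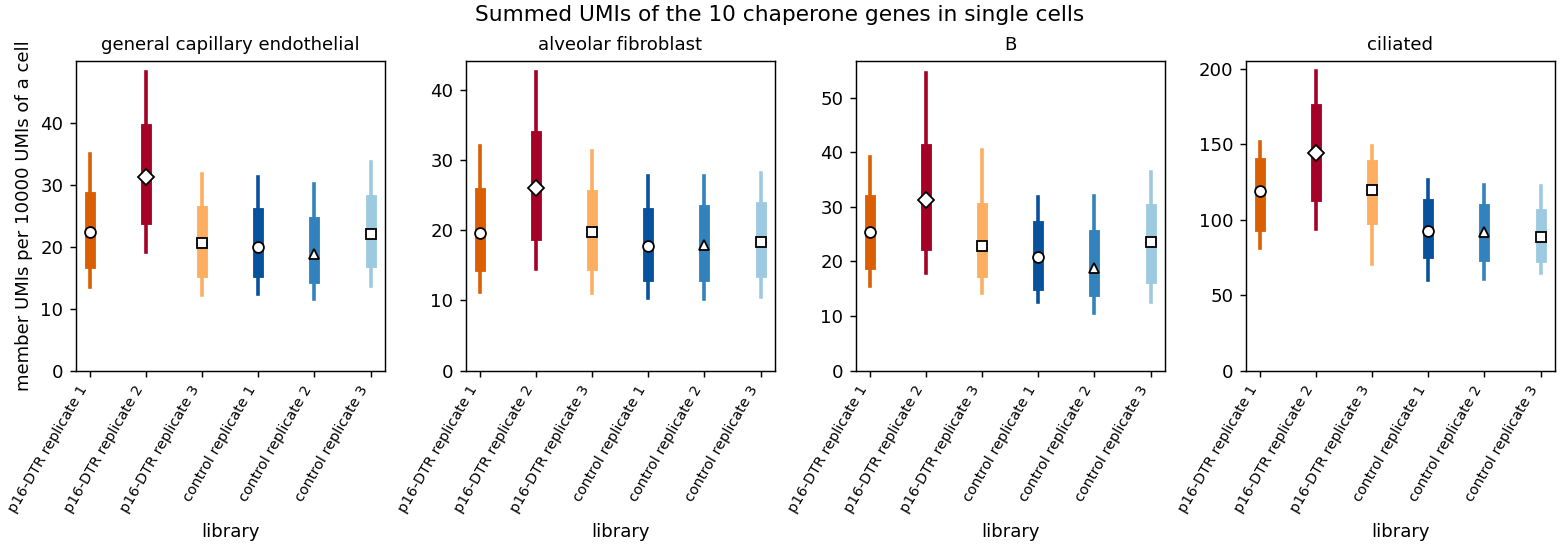
Summed UMIs of the 10 chaperone genes per 10000 UMIs of a cell, by library, in 4 cell types; thin lines run from the 10th to the 90th percentile, thick lines from the 25th to the 75th, and the symbol is the median. The whole range is shifted up in p16-DTR replicate 2, from a median of 17.7 to 19.7 in the other libraries to 26.1 in alveolar fibroblasts.

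Ciliated cells, the motile-ciliated epithelium of the airways, had the highest median log2 ratio of the 17 types. Hsp90aa1 stood there at 4816, 6184 and 5077 CPM in p16-DTR libraries and at 4009, 4004 and 3567 in controls. Hsph1 gave 600.2, 988 and 621 against 492, 437 and 486. Neither gene overlapped between the groups. Hspa8 (1871, 2338 and 1823 against 1319, 1380 and 1277) and Hspe1 (194, 335 and 180.3 against 144, 137 and 142) were separated too. In this type 6 of the 10 genes were higher without overlap, where 5.15% of all genes were, and the median log2 ratio was 0.52, or 0.35 without replicate 2. These sums rest on 80 to 164 ciliated cells per library.

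In aerocytes, the capillary cells of gas exchange, the inducible genes stood far apart in replicate 2. Hspa1a was at 27.6, 95.1 and 12.6 against 23.0, 27.0 and 29.6, and Hspa1b at 30.2, 120.3 and 15.9 against 20.3, 29.1 and 26.4. Replicate 3 was the lowest of the 6 libraries for both genes. Without replicate 2 the log2 ratios were -0.40 and -0.13. Other types differed from this. Hspa1b was higher without overlap in 2 of the 17 types, where 7.91% of all gene and type pairs were. Nothing is read from this count. Hspa1b was separated without overlap in venous endothelial cells, at 31.6, 42.9 and 20.5 against 15.1, 18.6 and 13.1, with a log2 ratio of 1.02 (0.74 without replicate 2). It was also separated in alveolar fibroblasts, at 9.03, 26.5 and 11.7 against 7.17, 7.85 and 7.85, with a ratio of 1.05 (0.45 without replicate 2).

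In aerocytes, both HSP90 genes and the mitochondrial pair were separated between the groups, which made 4 of the 10 genes. Over all pairs of a gene and a cell type, 7.91% were higher without overlap. Hsp90ab1 stood at 1286, 1840 and 1400 against 1087, 1120.0 and 1058, and Hspe1 at 65.7, 91.5 and 67.6 against 52.4, 55.6 and 53.7. Hsp90aa1 gave 329, 509 and 329 against 314, 309 and 308, and Hspd1 gave 102, 139 and 96.5 against 91.7, 87.0 and 88.0. Without replicate 2 the log2 ratios in aerocytes were 0.30 for Hsp90ab1, 0.31 for Hspe1, 0.09 for Hsp90aa1 and 0.16 for Hspd1. In general capillary cells 2 of the 10 genes, Hsp90ab1 and Hspe1, were separated. Hsp90ab1 stood there at 929, 1227 and 878 against 786, 746 and 809, and Hspe1 at 56.0, 61.4 and 50.5 against 46.9, 43.0 and 48.2. Both had a ratio of 0.21 without replicate 2. Hsp90aa1 in general capillary cells gave 252, 314 and 230.5 against 275, 254 and 305, where replicates 1 and 3 were the lowest of the 6 libraries.

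Among lymphocytes, B cells had the most separated genes, with 5 of 10 higher without overlap, where 6.42% of all genes in these cells were. Hspa8 stood there at 759.8, 986 and 758 against 556, 568 and 680.1, and Hsp90ab1 at 1083, 1424 and 1194 against 954, 962 and 1044. Hspe1 gave 174, 201 and 196 against 148.3, 148.2 and 159. Without replicate 2 the log2 ratios were 0.34, 0.21 and 0.29. In CD8 T and natural killer cells 0 of 10 genes were higher without overlap, where 5.85% and 9.04% of all genes were.

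Hsph1 was higher on average in the p16-DTR libraries in all 17 types, by log2 ratios of 0.56 to 0.94. In alveolar fibroblasts, the matrix-producing cells of the alveolar wall, it stood at 73.6, 117 and 81.7 against 41.5, 58.5 and 55.8, with no overlap. In CD8 T cells it stood at 84.3, 151 and 64.2 against 43.4, 65.5 and 60.5, where the groups overlapped. Without replicate 2 the median ratio over types was 0.38.

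Across all 170 pairs, 49 were higher in p16-DTR without overlap and 3 were lower, against 7.91% and 11.3% of all gene and type pairs. The higher pairs were 10 each for Hsp90ab1 and Hspe1, 8 for Hsph1 and 7 for Hspa8. Without replicate 2, 49 pairs were higher (12.8% of all pairs were) and 12 were lower (17.6%). Leaving out a p16-DTR library can only add separated pairs, so these counts say nothing on the weight of replicate 2. The lower pairs with all libraries were Hspa1a in arterial endothelial cells and Dnajb1 in arterial endothelial cells and classical monocytes. In arterial endothelium Dnajb1 stood at 51.2, 43.6 and 39.0 against 59.9, 53.3 and 64.3, a log2 ratio of -0.41 (-0.39 without replicate 2).

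Levels also differed between cell types within a mouse. The levels behind the choice of the genes were split by cell type too, though compared between the groups. The tests below therefore rest on values already seen. Each of 4 lineages was set against the mean of the other 3 with edgeR's quasi-likelihood test and the library as a block, and 33 of 40 comparisons passed an adjusted p of 0.05, 13 higher and 20 lower. Over all 20868 genes, 39.4% were higher and 39.6% lower in endothelium, 36.9% and 43.3% in epithelium, 41.4% and 39.8% in mesenchyme, and 40.1% and 45.3% in immune cells. A call by itself is therefore common here. With the library as a block, the p-values set the mean difference between lineages against its variation over the 6 mice. Both groups were pooled in this fit, so a lineage difference that depends on the group counts as variation.

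Epithelial cells held the most Hsp90aa1 and Hsph1. Hsp90aa1 was higher there by 2.68 ± 0.0471 on the log2 scale (SE, edgeR adjusted p = 7.36e-21), and Hsph1 by 2.69 ± 0.0674 (adjusted p = 2.50e-18). Hspd1 and Hsp90ab1 were higher by 1.05 and 1.01. Within the epithelium, Hsph1 averaged 604 CPM in ciliated, 14.6 in alveolar type 2 and 39.1 ± 19.5 in alveolar type 1 cells, the last with only 25 cells in the smallest library. Hsp90aa1 averaged 4609 in ciliated, 444 in alveolar type 2 and 1385 ± 729 in alveolar type 1 cells (SD, n = 6). Hspd1 averaged 320 in ciliated, 102 in alveolar type 2 and 78.9 in alveolar type 1 cells. Hsp90ab1 averaged 2949, 786 and 1328 in the same order. Hspa1a was lower in epithelium, at -0.73 (adjusted p = 0.000653).

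Mesenchymal cells held the most Hspa1a and Hspa1b, at 2.03 ± 0.133 (adjusted p = 2.16e-11) and 1.35 ± 0.134 (adjusted p = 1.40e-08), and more Dnajb1, at 0.51. They were low in Hsp90ab1 (-0.92) and Hspa8 (-0.76). Immune cells were high in Hspe1, at 0.96 ± 0.0579 (adjusted p = 3.90e-12), and in Hspa8, at 0.51, and low in Hspa1a (-1.42) and Hspa1b (-1.40). This did not hold for every immune type. Neutrophils were the lowest of the 17 types for both Hspe1 (25.7 CPM) and Hspa8 (438 CPM). Endothelial cells were low in Hsph1 (-1.68), Hsp90aa1 (-1.20) and Hspe1 (-1.10), though venous endothelial cells ranked 4 of 17 types for Hsph1, at 61.8 CPM. Hsp90aa1 was low in immune (-0.98) and mesenchymal cells (-0.50) too, each set against a mean that includes epithelium. It averaged 295 CPM in endothelial, 301 in immune, 439 in mesenchymal and 2210 in epithelial cells. In the control libraries alone, 34 of 40 comparisons passed.

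Ordered by type, Hspa1a ran from 73.4 ± 10.9 CPM in adventitial fibroblasts (SD, n = 6) to 1.05 ± 1.07 in natural killer cells. It was followed at the top by arterial endothelium at 51.7 ± 14.6 and alveolar fibroblasts at 44.8 ± 17.8. Compared within a library, arterial endothelium lay above alveolar fibroblasts in 4 of the 6 libraries. In the controls alone, arterial endothelium (62.4 ± 10.8, SD, n = 3) lay near adventitial fibroblasts (64.8 ± 6.17) and above alveolar fibroblasts (33.2 ± 7.25). Only 3 of its 16 neighbouring pairs of types kept their order in all 6 libraries. Hsp90aa1 fell from 4609 ± 954 in ciliated cells to 530.3 ± 45.4 in adventitial fibroblasts and to 162 ± 21.3 in neutrophils, whose levels were the lowest for 6 of the 10 genes. Hsph1 ran from 604 ± 201 in ciliated cells to 10.2 ± 5.47 in neutrophils, with CD8 T cells next to the top at 78.2 ± 38.2. Hspa8 was highest in ciliated cells (1668 ± 418) and classical monocytes (1531 ± 272), and lowest in neutrophils (438 ± 79.1). Ciliated cells lay above classical monocytes in 5 of the 6 libraries. Hsp90ab1 ran from 2949 ± 458 in ciliated cells to 314 ± 67.9 in neutrophils. Hspd1 ran from 320 ± 89.4 to 25.4 ± 3.33 in the same types. Dnaja1 ran from 701 ± 201 in ciliated cells to 199 ± 38.4 in nonclassical monocytes. Hspa1b followed Hspa1a at the top, with 60.01 ± 17.4 in adventitial fibroblasts. Hspe1 was highest in CD8 T cells, at 262 ± 11.5, and Dnajb1 was the flattest gene, with 2.61 times between its highest and lowest type.

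**Figure D4:**
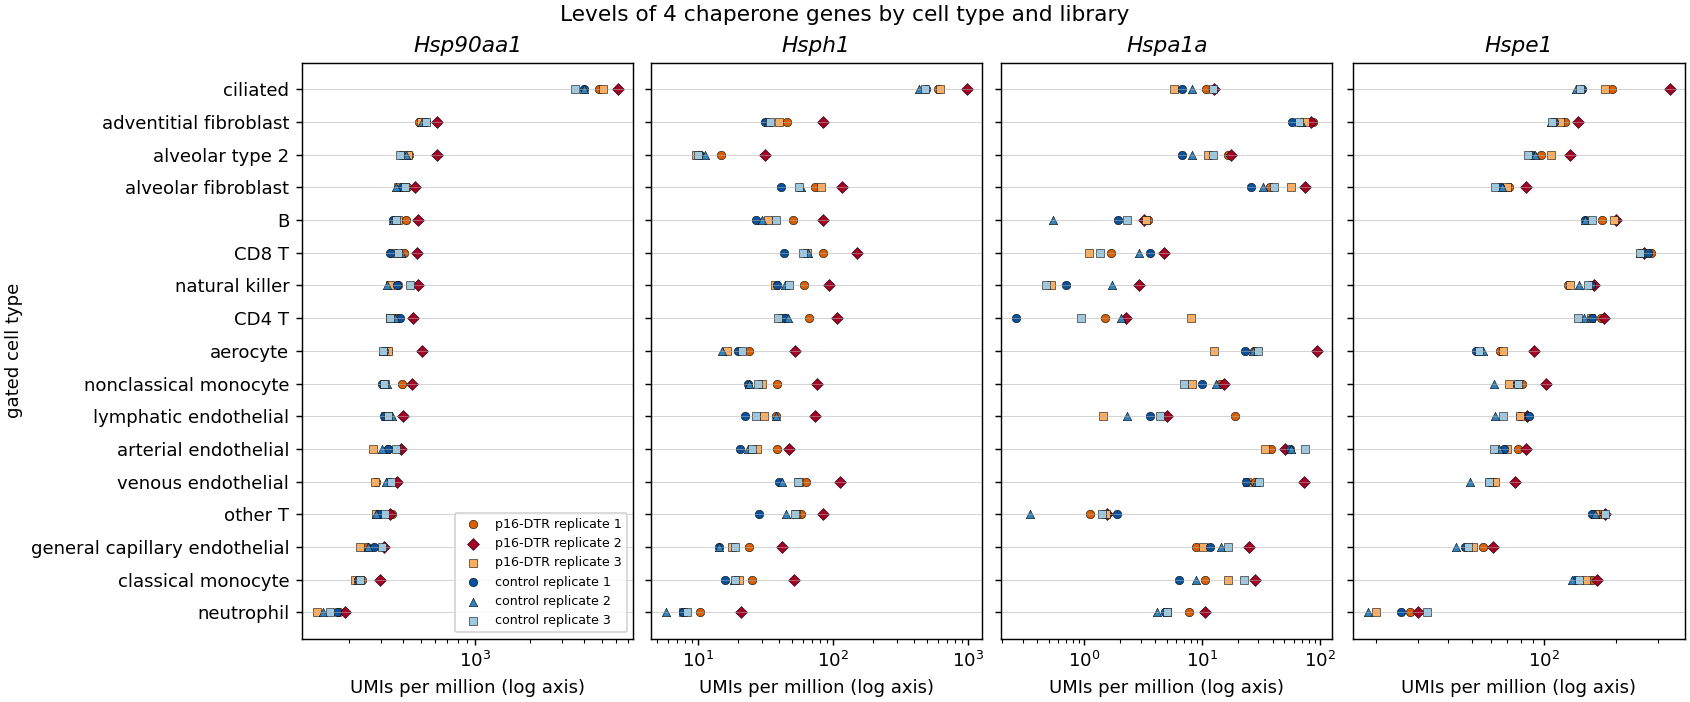
CPM on a log axis for Hsp90aa1, Hsph1, Hspa1a and Hspe1 in 17 gated cell types, with 1 point per library and types ordered by Hsp90aa1; points at 0 are not drawn. Ciliated cells lie far to the right for Hsp90aa1 (mean 4609) and Hsph1 (mean 604), and lymphocytes lie far to the left for Hspa1a.

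Genes that varied like the 10 were sought over 102 values (17 types in 6 libraries), each centred within its type, among 10329 genes. As a description, the non-members with the highest Pearson correlation were Stip1 (0.87), Chordc1 (0.84), Cacybp (0.83), Ahsa2 (0.82) and Fkbp4 (0.78), where the points share 6 libraries. Stip1 links HSP70 to HSP90, and Ahsa2 belongs to the family of HSP90 ATPase activators. Over all cells Stip1 stood at 50.9, 71.2 and 46.1 against 42.6, 45.8 and 48.2. Replicate 2 was its highest library, which the choice by likeness largely fixes. Without replicate 2, over 85 values, the correlations were 0.48 for Stip1 and Chordc1, 0.44 for Cacybp, 0.43 for Ahsa2 and 0.60 for Fkbp4. Dnajb1 reached 0.29, and 0.14 without replicate 2.

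At the other end of the ranking was Cirbp, which encodes a cold-inducible RNA-binding protein, at -0.68 (-0.37 without replicate 2, where it was no longer the last gene). Cirbp was singled out after its values were seen. It stood at 49.4, 41.9 and 54.6 in p16-DTR libraries and at 75.7, 70.9 and 73.2 in controls, with no overlap. Cirbp fell in arterial (-0.79), general capillary (-0.78) and venous (-0.78) endothelial cells (edgeR adjusted p = 0.0489, 0.0119 and 0.00740). With each library left out in turn, the arterial call passed in 0 of 6 fits, the capillary one in 5 and the venous one in 6. Hsf1 itself stood at 29.9, 30.6 and 31.2 CPM against 31.4 in each control, lower without overlap, as were 22.5% of all genes. It passed the edgeR test in 0 of 17 types, also at an unadjusted p of 0.05 (0 of 17) and with DESeq2 (0 of 17).

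**Figure D5:**
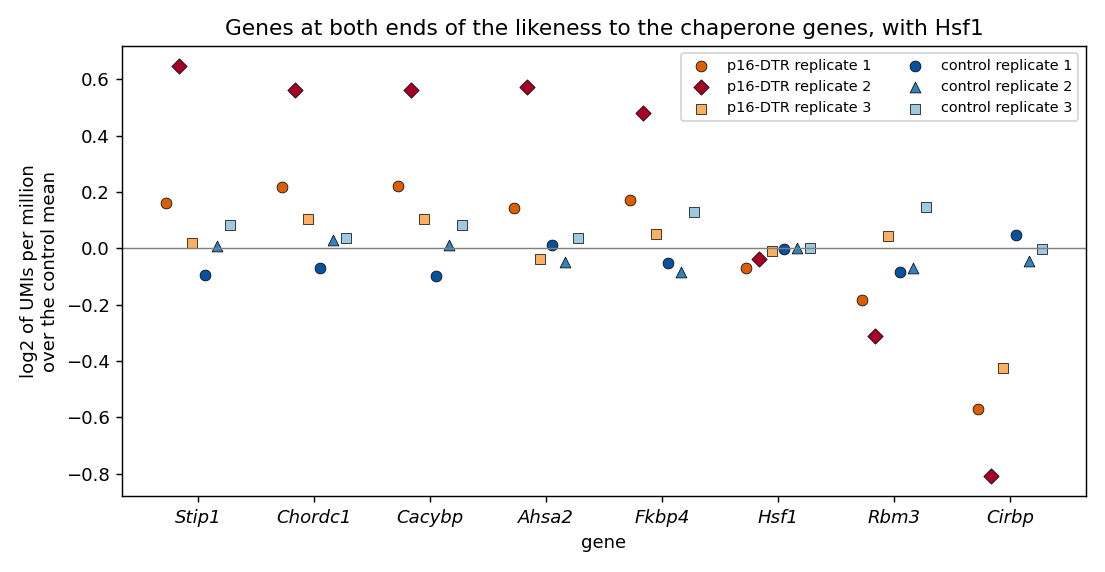
Log2 of CPM over the control mean, per library over all retained cells, for the 5 genes most like the chaperone genes, Hsf1, and the cold-inducible genes Rbm3 and Cirbp. p16-DTR replicate 2 is highest for the first 5 genes and lowest for Rbm3 and Cirbp, while Hsf1 stays near 0.

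The rest of the chaperone system was tested between the groups over 9 lists. Of 86 genes in the matrices, 85 passed the filter on low counts in at least 1 of the 17 types, and each was tested only where it passed. Of 1359 tests, 18 passed higher and 1 lower with edgeR, and 14 of the higher ones were chaperones of the endoplasmic reticulum. Over all genes and types edgeR called 0.639% of tests. The list of endoplasmic reticulum chaperones had a median log2 fold change of 0.16 over 272 tests. Its 14 calls came from 6 of its 16 genes. The other genes of this list, Hspa5 among them, passed in 0 of 17 types. Over all genes, calls made up 1.64% in alveolar fibroblasts, 0.756% in general capillary and 2.99% in venous endothelial cells, the types with most of the chaperone calls. They made up 0.263% in alveolar type 2, 0.276% in lymphatic and 0.889% in natural killer cells. In types with no chaperone call they were 3.01% in CD4 T cells, 0.254% in aerocytes, 0.206% in arterial endothelium, 0.083% in adventitial fibroblasts, 0.0494% in ciliated cells and 0 elsewhere.

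Hsp90b1, the HSP90 of the endoplasmic reticulum, rose in alveolar fibroblasts (0.41 ± 0.0700, adjusted p = 0.0451), general capillary (0.41 ± 0.0636, adjusted p = 0.0466) and venous endothelial cells (0.49 ± 0.0697, adjusted p = 0.0144). In venous cells it stood at 855, 915 and 847 CPM against 637, 640.3 and 613. Replicate 2 was not far above its group there. With each library left out in turn, the venous call passed in 6 of 6 fits, and the fibroblast and capillary calls in 0. The log2 fold changes in these fits, which test fewer samples, were 0.35 to 0.43 in fibroblasts and 0.37 to 0.44 in capillary cells. With p-values adjusted over all types together these 3 calls had edgeR adjusted p = 0.0447 (venous), 0.0738 (fibroblasts) and 0.0623 (capillary). Calr, a calcium-binding chaperone, rose in the same 3 types by 0.45, 0.37 and 0.43 (passing in 2, 0 and 4 of 6 fits). Pdia6, a disulfide isomerase, rose in alveolar fibroblasts (0.43), lymphatic (0.68) and venous cells (0.46), each passing in 1 of 6.

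Canx, the membrane-bound relative of Calr, rose in general capillary (0.32) and venous cells (0.36), passing in 0 and 1 of 6 fits. Creld2 rose by 0.72 in alveolar fibroblasts and 0.52 in venous cells, and Dnajb11, a J-domain protein of the endoplasmic reticulum, by 0.48 in alveolar fibroblasts. Creld2 passed in 2 and 0 of 6 fits and Dnajb11 in 1. Hspb1, a small heat shock protein, rose in alveolar fibroblasts (0.54) and alveolar type 2 cells (0.82), each passing in 1 of 6. In venous cells Hspa12b, an endothelial HSP70 relative, rose by 0.71 and Dnajb4 fell by 0.66 on the log2 scale, each passing in 2 of 6. Fkbp5, a co-chaperone of steroid receptors named after its values were seen, rose by 0.91 in natural killer cells (3 of 6). Its median log2 fold change over the 17 types was 0.93. With adjustment over all types 4 of these calls stayed past the threshold: Hsp90b1 in venous cells, Creld2 in alveolar fibroblasts, Hspb1 in alveolar type 2 cells and Fkbp5 in natural killer cells. Without p16-DTR replicate 2, 5 tests passed, 3 higher and 2 lower. There were 3 without p16-DTR replicate 3, 2 without control replicate 1 or 3, and 9 without control replicate 2.

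No gene passed among the regulators of heat shock factors, the HSP70 exchange factors, the TRiC chaperonin or the other mitochondrial chaperones (edgeR). At an unadjusted p of 0.05 these lists had 8 of 93, 25 of 129, 22 of 119 and 13 of 136 tests, and DESeq2 called 1, 2, 1 and 1. Over all genes and types, 13.5% of tests had an unadjusted p under 0.05 and DESeq2 called 2.53%. HSP90 co-chaperones had 1 call in 221 tests (17 with DESeq2, and 71 at an unadjusted p of 0.05) at a median log2 fold change of 0.18. Immediate early genes, set beside as genes that respond within minutes, passed 12 times lower and 1 time higher in 153 tests (edgeR), where 0.639% of all tests passed in either direction. In this list 85 tests had an unadjusted p under 0.05 and DESeq2 called 45. Their summed level over all cells was 6754 to 7276 CPM in p16-DTR libraries and 7573 to 9672 in controls. Their part in the chaperone levels was not tested.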

How the data were processed

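Lungs of 6 mice were profiled with 10x GEM-X 3′ chemistry, 1 library per mouse. The authors deposited raw UMI counts per gene and barcode, made with Cell Ranger 8.0.1 per the file headers and, per the submitters' processing notes, build mm10. The cell filter kept barcodes with 300 or more genes, 500 or more UMIs and a mitochondrial share up to 15%. Cell types were gated on at least 3 detected markers, with at most 10% of the leading lineage's marker UMIs in the next lineage; the details of the gate were set after the data were seen. No doublet caller was run. Counts were summed per library and type, given as UMIs per 1000000 (CPM), and tested with the edgeR 4.0.16 quasi-likelihood test (R 4.3.3, filterByExpr, TMM, Benjamini-Hochberg at 0.05). DESeq2 1.42.0 was an alternative. Likeness used log2 of CPM plus 1, for genes at 10 or more. Tests were tried on simulated data with known changes.

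The members and lists were chosen with earlier results of these data known. Named genes are the 10 members, Hsf1, Cdkn2a, other chaperones called in at least 2 types, the 3 largest changes in the 3 types with most calls, and the 5 most similar genes. Cirbp, Rbm3, Fkbp5 and the immediate early genes fall outside this rule and were named after their values were seen. Cct6a was not analysed here. Positions are from GENCODE M21 (GRCm38).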

Additional observations from a re-analysis of the deposited data

Results flagged for a closer look

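Hspa1a lay on opposite sides in different cell types without overlap between the libraries of the 2 groups, higher in 3 of 17 types and lower in 1. Over all gene and type pairs 7.91% were higher and 11.3% lower without overlap, and nothing is read from the counts of a single gene. In B cells the p16-DTR libraries were higher, at 3.44, 3.24 and 3.35 CPM against 1.95, 0.544 and 2.32 in controls, a log2 ratio of 1.06 (1.08 without p16-DTR replicate 2). It was also higher in adventitial fibroblasts (86.7, 84.6 and 74.6 against 57.9, 69.6 and 67.0) and in neutrophils. In arterial endothelial cells it was lower, at 38.8, 50.8 and 33.9 against 55.7, 56.6 and 74.8, a log2 ratio of -0.60 (-0.78 without that library). The difference between these types was not tested. Hspa1a is at a few CPM in B cells and neutrophils, so counting error is large there.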

How the results depend on the processing

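The 19 calls among other chaperones became 87 with DESeq2, 94 without a filter on low counts and 4 with adjustment over all types; leaving out 1 library gave 2 to 19. With the replicate number as a block there were 8. Same-numbered libraries correlated at 0.29, -0.05 and 0.31, and libraries of different numbers at -0.38 to 0.08. The same number was the best match for p16-DTR replicates 1 and 3, and another number for replicate 2. The main test used no block, and these values do not settle whether the numbers pair the mice. RLE size factors (18), 4 gate markers (18) and stricter cell filters (19) changed little. Fewer samples are tested when a library is left out; the cause of the other shifts was not tested. Counting each single call once per alternative, 132 values kept the threshold, 115 lost it and 0 changed sign. Calls between lineages stayed at 30 to 34. Hsp90ab1 in immune cells, uncalled at 0.01, was -0.0434 without control replicate 3 and ranged to 0.0264 over left-out libraries. Hsp90aa1 was 0.28 with equal weight per type, from a mean CPM in which ciliated cells weigh most. The median chaperone ratio of 0.27 ranged from -0.00229 (without p16-DTR replicate 2) to 0.36 over left-out libraries. Depth limits Hspa1a and Hspa1b in lymphocytes, where they are at a few CPM. Leaving p16-DTR replicate 2 out of the pair counts and of the likeness to the members was chosen after seeing the data.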

Other observations

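In cells that the marker gates assigned to no type, p16-DTR replicate 2 was also the highest library for Hspa8 and Hsph1. In these cells Hspa8 stood at 817, 1086 and 784 CPM in p16-DTR replicates 1, 2 and 3 and at 643, 650 and 724 in controls. Hsph1 stood at 48.9, 74.2 and 38.8 against 27.7, 34.8 and 40.6. Types with 20 to 49 cells in their smallest library are given as levels only: smooth muscle cells, which contract around airways and vessels, held Hspa1a at 223 ± 69.6 CPM (SD, n = 6), pericytes at 85.1 ± 15.1 and peribronchial fibroblasts at 74.1 ± 12.9, beside the adventitial fibroblasts at 73.4.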
